A study of Mus musculus with 2 samples.

Results

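The genes described here are 39 genes of the integrated stress response and the unfolded protein response, chosen by name from the deposited gene lists with the condition that each held at least 50 UMIs (unique molecular identifiers, each 1 captured RNA molecule) over both libraries. All 39 met it, out of 14172 gene models that did so and 32285 in the lists. They were measured by single-cell RNA sequencing of CD45-selected cells from mouse tumours. There were 2 libraries, 1 per group: CEP, from tumours of the cepharanthine group, and Vehicle, from tumours of the vehicle group, whose sample title is spelled "Vehide". Cepharanthine is a plant alkaloid, and the series title names immunogenic cell death in solid tumours as the effect under study. The design text gives 5 biological replicates per group, but the barcodes carry nothing that assigns them to an animal, so each group is 1 sample, with no replicate check and no test between groups. The sources used here name no mouse strain, age, tumour model, dose or time. By the labels' protocols, tumours were dissociated with enzymes and CD45+ cells were taken with magnetic beads, so epithelial cells are those that passed this selection.

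Cells that make more protein than the endoplasmic reticulum (ER) can fold start the unfolded protein response, in which the sensors PERK (Eif2ak3), IRE1 (Ern1) and ATF6 raise ER chaperones and degradation factors. PERK also belongs to the integrated stress response, in which PERK, PKR (Eif2ak2), GCN2 (Eif2ak4) or HRI phosphorylate eIF2alpha, slow translation and favour synthesis of the transcription factor ATF4. ATF4 induces CHOP (Ddit3), amino acid and one-carbon enzymes, and feedback genes such as Ppp1r15a. In immunogenic cell death, phosphorylated eIF2alpha and calreticulin (Calr) at the cell surface are known features; the RNA levels below measure neither.

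The levels were taken in cells gated on raw UMIs of other genes. The macrophage gate took barcodes with at least 10 UMIs of the C1q genes, the neutrophil gate 1 or more of Csf3r and Cxcr2, the T gate 2 or more of the Cd3 genes, the dendritic gate 1 or more of Flt3 and the epithelial gate at least 10 of the keratins Krt8 and Krt18, with upper limits on C1q for the last 4. In this order the gates held 4706, 1687, 172, 92 and 834 CEP barcodes, and 5160, 2143, 271, 98 and 133 Vehicle barcodes. Their median depths were 10017, 1776, 2860.5, 9765 and 26412.5 UMIs in CEP, and 11228.5, 1864, 2684, 9554 and 27614 UMIs in Vehicle. The libraries held 88721774 UMIs in 9621 CEP barcodes and 81208647 in 9989 Vehicle barcodes, and 136 barcode sequences occurred in both. Values are a gene's UMIs scaled to 1e+06 UMIs of the gate (CPM), ratios are log2 of CEP over Vehicle, and intervals in parentheses are exact 95% intervals of the counting error only, which leave out the spread between cells and animals. Called higher or lower means a log2 ratio of at least 0.32 in size, the call limit, in a gene with 50 or more UMIs in the gate over both libraries.

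Some barcodes of the leukocyte gates carried RNA of other cell types, and the amount differed between the libraries. In the neutrophil gate the summed epithelial markers stood at 874 CPM in CEP and 133 CPM in Vehicle, and the summed fibroblast markers at 1381 CPM in CEP and 10.4 CPM in Vehicle. In the T gate epithelial markers stood at 814 CPM in CEP and 39.3 CPM in Vehicle, and in the macrophage gate at 333 CPM in CEP and 67.6 CPM in Vehicle. Fibroblast markers in the T gate went the other way, at 301 CPM in CEP and 1212 CPM in Vehicle. Of the neutrophil barcodes, 28 in CEP and 5 in Vehicle also passed the epithelial gate. They were 1.66% of the CEP gate and 0.233% of the Vehicle gate but held 15.3% of the CEP UMIs and 1.75% of the Vehicle UMIs of the gate. The main neutrophil and T cell values are therefore also given for barcodes in exactly 1 gate, and again without those with 10 or more UMIs of the collagens Col1a1, Col1a2 and Col3a1. In barcodes of exactly 1 gate the neutrophil epithelial markers stood at 43.7 CPM in CEP and 14.95 CPM in Vehicle, and the collagen limit brought the fibroblast markers to 7.99 CPM in CEP and 0.730 CPM in Vehicle. Among T barcodes of exactly 1 gate, 1 in CEP and 2 in Vehicle held 10 or more collagen UMIs. These had 1.71% of the CEP UMIs and 5.55% of the Vehicle UMIs of that set. Each gate's own markers were high in it in both libraries, for example neutrophil markers at 99180 CPM in CEP and 119568 CPM in Vehicle. In the T gate, however, neutrophil markers stood at 26013 CPM in CEP and 40421 CPM in Vehicle, and at 200 CPM in CEP and 1037 CPM in Vehicle in barcodes of exactly 1 gate.

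The cell types differed more in these genes than the libraries did. Of the 39 genes, 31 had the same highest gate in both libraries: 9 in the epithelial gate, 8 in the macrophage gate, 7 in the neutrophil gate, 6 in the dendritic gate and 1 in the T gate. Over all 14172 gene models the highest gate in both libraries was epithelial for 31.3%, macrophage for 10.1%, neutrophil for 10.5%, dendritic for 9.47% and T for 11.7%. The epithelial genes were Atf5, Ddit4, Trib3, Asns, Psat1, Phgdh, Shmt2, Hspa5 and Pdia6, and 7 of them stood above the next gate with intervals apart in both libraries. The neutrophil genes were Atf4, Ddit3, Sesn2, Ppp1r15a, Xbp1, Dnajb9 and Derl1, with 6 of them apart. The macrophage genes were Calr, Pdia4, Dnajb11, Sdf2l1, Creld2, Hyou1, Sel1l and Edem1, but only Calr was apart from the next gate in both libraries. The dendritic genes were Atf6, Mthfd2, Dnajc3, Herpud1, Syvn1 and Derl2, with 2 apart, and the T cell gene was Ern1, which was not apart.

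**Figure D1:**
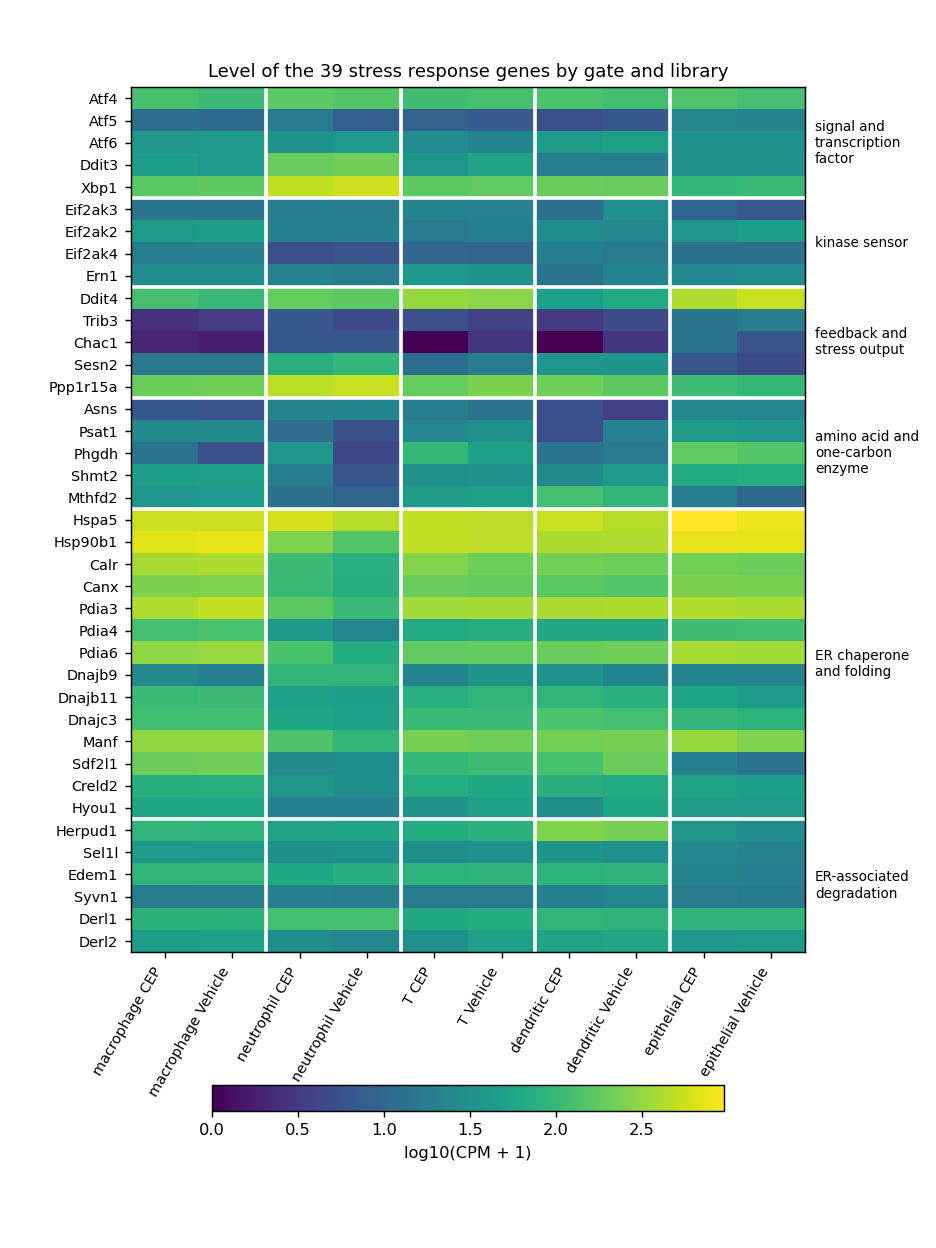
Level of each of the 39 genes as log10(CPM + 1), by gate, with CEP left of Vehicle in each pair, and genes grouped by role. Neutrophil columns are bright for Xbp1 and Ppp1r15a and darker for most chaperones, epithelial columns are bright for Phgdh, Ddit4 and Hspa5, and the pair of columns of a gate look alike for most genes.

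Ddit3, Xbp1, Ppp1r15a, Sesn2, Dnajb9 and Derl1 stood higher in neutrophils than in any other gate in both libraries. They have mixed roles: of the 5 genes of feedback and stress output, Ppp1r15a and Sesn2 were highest in neutrophils, while Ddit4 and Trib3 were highest in epithelial cells and Chac1 differed between the libraries. Ddit3, which encodes the transcription factor CHOP, stood at 192 CPM (180 to 205) in CEP neutrophils and 211 CPM (199 to 223) in Vehicle neutrophils. The next gate in order was the macrophage gate in CEP, at 46.0 CPM, and the T gate in Vehicle, at 53.1 CPM, so neutrophils were 4.18-fold above the next gate in CEP and 3.97-fold in Vehicle. Xbp1, the transcription factor made active by IRE1 splicing, which these counts do not resolve, stood at 491 CPM in CEP neutrophils and 569 CPM in Vehicle neutrophils, against 195 CPM in CEP and 191 CPM in Vehicle in the dendritic gate, the next in order. Ppp1r15a, the phosphatase subunit GADD34 that reverses eIF2alpha phosphorylation, stood at 469 CPM in CEP neutrophils and 535 CPM in Vehicle neutrophils, and its other 4 gates lay between 95.7 and 245 CPM. Sesn2, which restrains mTORC1 under amino acid stress, stood at 77.5 CPM in CEP neutrophils and 91.7 CPM in Vehicle neutrophils, against 35.2 CPM in CEP and 34.0 CPM in Vehicle in the dendritic gate. Dnajb9 (ERdj4), an ER cochaperone, stood at 88.7 CPM in CEP neutrophils and 86.6 CPM in Vehicle neutrophils, against at most 33.9 CPM in another gate. None of these 5 genes passed the call limit between the libraries in neutrophils: the log2 ratios were -0.13 for Ddit3, -0.21 for Xbp1, -0.19 for Ppp1r15a, -0.24 for Sesn2 and 0.03 for Dnajb9.

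The neutrophil pattern was also present per cell at matched depth. After thinning each cell to 1000 UMIs, which left out 237 CEP and 216 Vehicle neutrophils, a Ddit3 UMI was found in 21.5% of CEP neutrophils (19.4 to 23.7) and 19.2% of Vehicle neutrophils (17.5 to 21.0). No share of free RNA was measured in these libraries, and it can be larger in shallow cells such as neutrophils. The lowest share was 1.88% in CEP T cells and 1.05% in the Vehicle dendritic gate, while macrophages stood at 4.79% in CEP and 3.74% in Vehicle. For Xbp1 the share was 36.1% in CEP neutrophils and 35.8% in Vehicle neutrophils, against 8.03% in CEP epithelial cells and 11.3% in Vehicle T cells and epithelial cells. For Ppp1r15a it was 40.6% in CEP neutrophils and 41.2% in Vehicle neutrophils, against 11.3% in epithelial cells of either library. Unthinned, Ddit3 was detected in 34.7% of neutrophils in CEP and 31.1% in Vehicle, and in 33.0% of macrophages in CEP and 30.5% in Vehicle, whose median depth was higher. Only the thinned shares compare the gates at 1 depth.

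**Figure D2:**
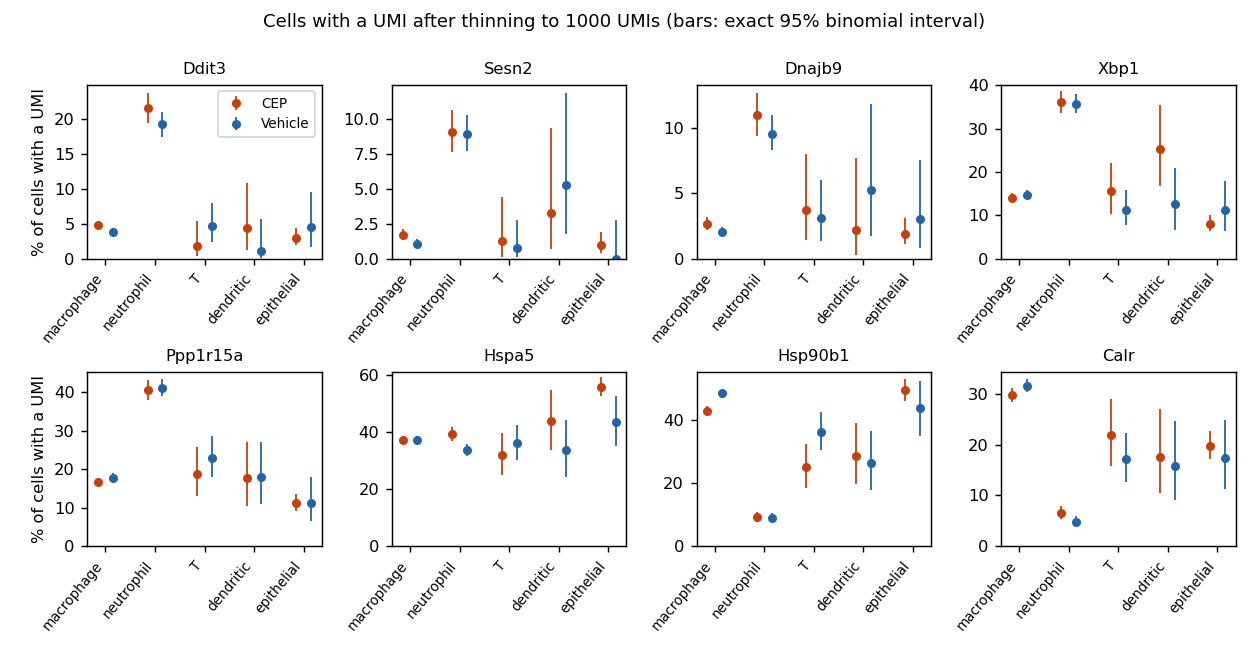
Share of cells with at least 1 UMI of each gene after thinning to 1000 UMIs per cell, in percent, by gate, with CEP left of Vehicle; bars are exact 95% binomial intervals. Ddit3, Sesn2, Dnajb9, Xbp1 and Ppp1r15a are highest in neutrophils in both libraries, Hsp90b1 and Calr are lowest there, and CEP and Vehicle neutrophils lie close together for these 7 genes.

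The ER folding machinery had the opposite place. Of the 14 chaperone and folding genes, 10 were lowest in the neutrophil gate in both libraries, among them Hsp90b1 (GRP94), Calr, Canx, Pdia3, Pdia4 and Pdia6. Over all roles the lowest gate in both libraries was the neutrophil gate for 14 of the 39 genes, the epithelial gate for 8, the dendritic gate for 4, the T gate for 2 and the macrophage gate for 1. Of all 14172 gene models, 27.7% were lowest in the neutrophil gate, 13.7% in the epithelial, 5.69% in the dendritic, 3.52% in the T and 5.55% in the macrophage gate. Hspa5 (BiP, the ER chaperone of the Hsp70 family) was not among them: it stood between 504 and 946 CPM in the 5 CEP gates and between 450 and 791 CPM in the 5 Vehicle gates, and was highest in epithelial cells in both. Hsp90b1 stood at 249 CPM in CEP neutrophils and 147 CPM in Vehicle neutrophils, against 402 to 745 CPM in the other gates of CEP and 417 to 745 CPM in those of Vehicle. Calr, an ER lectin chaperone, was highest in macrophages, with 386 CPM in CEP and 408 CPM in Vehicle, and lowest in neutrophils, with 109 CPM in CEP and 76.0 CPM in Vehicle. Pdia3, a disulfide isomerase that works with calreticulin, ranged from 165 to 426 CPM across the CEP gates and from 107 to 499 CPM across the Vehicle gates. Pdia6, another disulfide isomerase, was highest in the epithelial gate, with 387 CPM in CEP and 368 CPM in Vehicle, and Manf, a secreted protein of the ER, ranged from 137 to 320 CPM across the CEP gates and from 90.3 to 300 CPM across the Vehicle gates.

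Herpud1 and Mthfd2 stood highest in dendritic cells, and Sdf2l1 in macrophages. Herpud1, a membrane component of ER-associated degradation, stood at 257 CPM in the CEP dendritic gate and 227 CPM in the Vehicle dendritic gate, which was 2.91-fold above the next gate in CEP and 2.76-fold in Vehicle. Mthfd2, a mitochondrial one-carbon enzyme, stood at 121 CPM in CEP dendritic cells and 89.6 CPM in Vehicle dendritic cells, against at most 42.2 CPM elsewhere in CEP and 46.7 CPM elsewhere in Vehicle. Within the dendritic gate, Mthfd2 stood at 148 CPM in the 37 CEP barcodes with Ccr7 and Fscn1 UMIs and 101 CPM in the 30 Vehicle barcodes, and at 97.1 CPM in the 35 CEP barcodes with Xcr1 or Clec9a UMIs and 90.7 CPM in the 45 Vehicle barcodes. Its high level was therefore present in both kinds of dendritic cell. Sdf2l1, an ER folding cofactor, was 10.4-fold higher in the highest gate (macrophage) than in the lowest (epithelial) in CEP and 15.7-fold in Vehicle. The dendritic gate was next, with macrophages 1.53-fold above it in CEP and 1.10-fold in Vehicle. The Vehicle intervals overlapped, at 209 CPM (206 to 213) in macrophages and 191 CPM (165 to 219) in the dendritic gate. The 3 CEP and 4 Vehicle barcodes with at least 10 Jchain and Mzb1 UMIs and no Siglech UMI, markers of antibody-secreting cells, held 3361 CPM of Hsp90b1 in CEP and 1120 CPM in Vehicle, and 902 CPM of Creld2, an ER folding factor, in CEP and 616 CPM in Vehicle. Each value was above all 5 gates, where Creld2 reached at most 76.7 CPM, but rests on so few barcodes that it describes those alone.

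The promoters of several chaperone genes carry a shared sequence, the ER stress response element (ERSE), which is known to be bound by ATF6 with the factor NF-Y. In RefSeq's promoter table (GRCm38.p6), which had 35 of the 39 genes, CCAAT followed after 9 bases of any kind by CCACG was found on either strand in the 250 bases before the start of 8 of the 35 (22.9%), against 35 of 27025 genes in the table (0.1295%). The element is known from this pathway, and the 39 genes were chosen by name from it. The 35 matching genes of the whole table include these 8. The higher share therefore goes with how the genes were chosen and is no independent finding. The matches are shown with 5 flanking bases on each side, read in the direction of the gene, with the element in capitals. Where the element lies on the other strand it reads as CGTGG, 9 bases and ATTGG.
Hspa5 (chr2:34772020-34772048, + strand): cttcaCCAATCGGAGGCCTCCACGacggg
Canx (chr11:50325795-50325823, - strand): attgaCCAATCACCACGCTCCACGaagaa
Dnajc3 (chr14:118937822-118937850, + strand): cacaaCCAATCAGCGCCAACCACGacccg
Pdia6 (chr12:17266486-17266514, + strand): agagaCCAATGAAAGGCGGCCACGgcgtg
Syvn1 (chr19:6046527-6046555, + strand): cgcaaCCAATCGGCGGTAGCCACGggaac
Calr (chr8:84847070-84847098, - strand): caacgCGTGGTCGACCCTCATTGGcccat
Creld2 (chr15:88819515-88819543, + strand): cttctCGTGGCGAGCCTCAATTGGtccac
Hsp90b1, first site (chr10:86705633-86705661, - strand): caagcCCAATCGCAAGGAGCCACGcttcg
Hsp90b1, second site (chr10:86705528-86705556, - strand): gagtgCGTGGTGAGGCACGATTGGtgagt

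The element lies 26 bases before the start in Syvn1 and 194 bases before it at the first site of Hsp90b1, and in the other genes in between. The whole 250 bases before the start of Creld2, which lies just outside the annotated gene, show the element in its setting.
Creld2 (chr15:88819396-88819645, + strand): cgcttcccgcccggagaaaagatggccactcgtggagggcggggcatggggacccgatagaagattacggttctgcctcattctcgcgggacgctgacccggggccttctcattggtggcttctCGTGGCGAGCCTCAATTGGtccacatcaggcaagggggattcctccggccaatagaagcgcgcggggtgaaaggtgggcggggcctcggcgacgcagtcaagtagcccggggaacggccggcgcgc
The second form of the element, ATTGG with 1 base of any kind before CCACG, was found in Herpud1 alone, against 0.0370% of genes. The 8 letters TGACGTGG, the core of the element that XBP1 is known to bind, were in 0 of the 35 genes and in 0.603% of all genes. The letters TGATGNAA, the core of the amino acid response element bound by ATF4, were found in 3 genes (8.57%), against 3.91% of all genes. They are shown because Chac1 and Herpud1 are among the genes called higher in CEP epithelial cells below, and Asns is not.
Herpud1, ERSE-II (chr8:94386372-94386392, + strand): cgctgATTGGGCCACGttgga
Herpud1, amino acid response core (chr8:94386312-94386329, + strand): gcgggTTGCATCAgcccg
Chac1, amino acid response core (chr2:119351044-119351061, + strand): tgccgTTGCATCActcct
Asns, amino acid response core (chr6:7693220-7693237, - strand): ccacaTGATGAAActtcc
These matches describe letters in the window and were not tied to binding in these cells. The shares of these further elements carry the same limit of a choice of genes by name.

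In macrophages, the largest gate, the genes differed little between CEP and Vehicle. Of the 39 genes, all measured there, 2 were called higher in CEP, against 11.5% of the 12764 genes measured in the gate, and 1 was called lower, against 4.83%. The other 36 lay between -0.25 and 0.30 on the log2 scale. The median log2 ratio was -0.03 over the 39 genes and 0.02 over all measured genes. Of the 14 chaperone and folding genes none was called, and their median log2 ratio was -0.07, with Hspa5 at 547 CPM in CEP and 549 CPM in Vehicle. Atf4, whose protein is controlled mainly through translation, stood at 127 CPM in CEP macrophages and 109 CPM in Vehicle macrophages, and Ddit3 at 46.0 CPM in CEP and 39.5 CPM in Vehicle, both within the call limit.

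Phgdh, the first enzyme of serine synthesis, was the gene of the set that differed most in macrophages. It stood at 12.9 CPM in CEP and 4.35 CPM in Vehicle, and its log2 ratio was 1.57 (1.37 to 1.78). The excess sat in barcodes with keratin RNA: 129 CEP macrophages with 5 or more keratin UMIs held 72.0% of the gate's 671 Phgdh UMIs, and 18 Vehicle macrophages held 20.1% of its 268. Without barcodes that had any keratin UMI the log2 ratio was 0.20 and none of the 39 genes was called higher. Phgdh was highest in the epithelial gate, at 176 CPM in CEP and 150.2 CPM in Vehicle. Trib3, a pseudokinase that feeds back on ATF4 and CHOP, was called lower in CEP macrophages, at 1.58 CPM in CEP and 2.37 CPM in Vehicle, and Chac1, which degrades glutathione, was called higher at 1.06 CPM in CEP and 0.828 CPM in Vehicle. These rest on 82 CEP and 146 Vehicle UMIs for Trib3 and on 55 CEP and 51 Vehicle UMIs for Chac1, whose counting interval included 0 (-0.22 to 0.94).

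**Figure D3:**
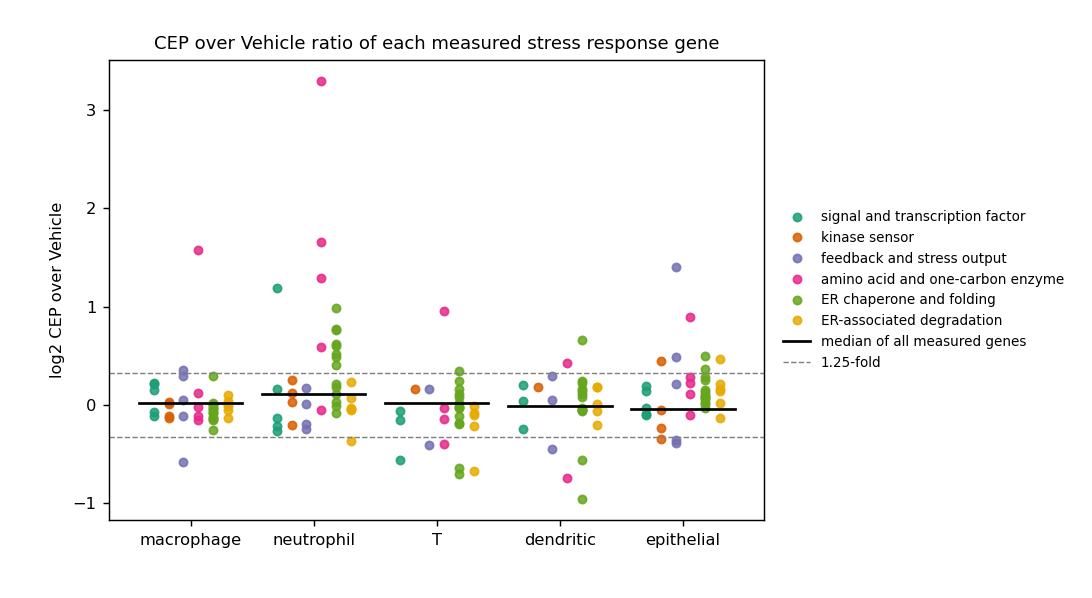
The log2 CEP over Vehicle ratio of each of the genes with at least 50 UMIs in a gate, 1 point per gene, coloured by role; the black line is the median over all measured genes and dashed lines mark the call limit. Macrophage points lie close to 0 apart from Phgdh at 1.57 and Trib3 at -0.58, and in the neutrophil gate as a whole 4 of the 5 enzymes and 8 of the 14 chaperones lie above the upper dashed line.

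In the neutrophil gate as a whole, 13 of the 38 measured genes were called higher in CEP, against 35.1% of the 8367 genes measured, and 1 was called lower, against 9.16%. The 13 genes were 4 of the 5 amino acid and one-carbon enzymes (Phgdh, Shmt2, Psat1 and Mthfd2), 8 of the 14 chaperone and folding genes and Atf5. The share of the set was near the background, and the median log2 ratio was 0.14 over the set and 0.12 over all measured genes. Phgdh stood at 34.3 CPM in CEP and 3.42 CPM in Vehicle, and its log2 ratio was 3.30 (2.66 to 4.08). Of its 169 CEP UMIs, 160 (94.7%) lay in the 28 barcodes that also passed the epithelial gate, as did 14 of its 20 Vehicle UMIs. Those CEP barcodes also held 41.2% of the gate's Hsp90b1 UMIs, 49.1% of its Pdia6 UMIs and 27.1% of its Hspa5 UMIs, but 2.64% of its Ddit3 UMIs.

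In barcodes of exactly 1 gate, 5 of 34 measured genes were called higher in CEP neutrophils, against 14.9% of the 7443 genes measured, and 0 were called lower, against 9.02%. The 5 were Atf5, Mthfd2, Hsp90b1, Pdia6 and Manf. Phgdh then stood at 2.23 CPM in CEP and 0.729 CPM in Vehicle, from 9 CEP and 4 Vehicle UMIs. Without the 7 CEP barcodes and 1 Vehicle barcode that held 10 or more collagen UMIs, 1 gene (Atf5) was called higher, against 9.9% of genes, and 1 (Hyou1) was called lower, against 10.9%. The median log2 ratio of the set was then 0.04, against -0.01 over all measured genes. Atf5, a transcription factor translated under eIF2alpha phosphorylation, kept a ratio past the call limit under all 14 other settings tried, between 0.83 and 1.23 on the log2 scale. Among these settings, a minimum of 20 UMIs leaves a ratio as it was. In barcodes of exactly 1 gate with under 10 collagen UMIs, Atf5 stood at 12.4 CPM (9.12 to 16.4) in CEP and 6.94 CPM (4.91 to 9.52) in Vehicle. These values came from 48 CEP and 38 Vehicle UMIs. Its level is low, and after thinning a UMI was found in 1.24% of CEP neutrophils and 0.519% of Vehicle neutrophils.

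Ddit3, Xbp1, Ppp1r15a, Sesn2 and Dnajb9 stayed within the call limit between the libraries in the same barcodes. In barcodes of exactly 1 gate with under 10 collagen UMIs, Ddit3 stood at 233 CPM in CEP and 221 CPM in Vehicle, with a log2 ratio of 0.08 (-0.05 to 0.20). Xbp1 stood at 585 CPM in CEP and 591 CPM in Vehicle, with a log2 ratio of -0.01 (-0.09 to 0.06). Ppp1r15a stood at 556 CPM in CEP and 559 CPM in Vehicle, with a log2 ratio of -0.01 (-0.09 to 0.07). These 3 counting intervals lie inside the call limit. Sesn2 stood at 94.6 CPM in CEP and 95.6 CPM in Vehicle, with a log2 ratio of -0.02 (-0.21 to 0.18), and Dnajb9 at 104.9 CPM in CEP and 89.1 CPM in Vehicle, with a log2 ratio of 0.24 (0.04 to 0.43). Hspa5 stood at 516 CPM in CEP and 454 CPM in Vehicle, with a log2 ratio of 0.19 (0.10 to 0.27), and Manf at 102 CPM in CEP and 85.8 CPM in Vehicle, with a log2 ratio of 0.25 (0.06 to 0.45). Of the 8 genes with an ERSE, 5 were called higher in the whole gate, against 35.1% of all genes, 2 in barcodes of exactly 1 gate, against 14.9%, and 0 with the collagen limit as well, against 9.9%.

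**Figure D4:**
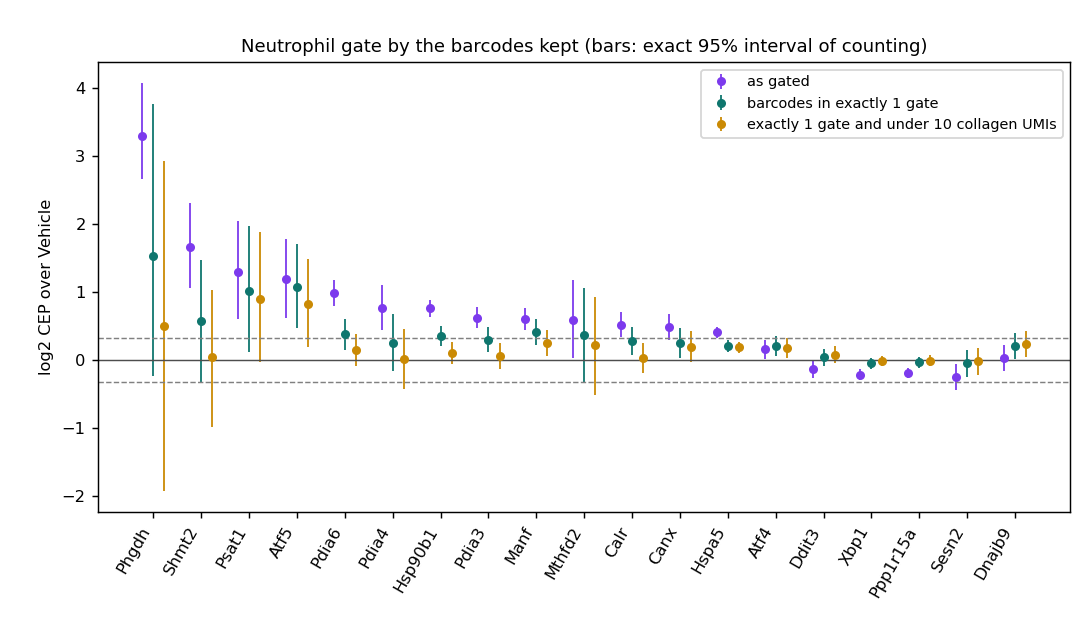
The log2 CEP over Vehicle ratio in the neutrophil gate for the 13 genes called higher there and 6 further stress genes, for all barcodes of the gate, barcodes in exactly 1 gate, and those with under 10 collagen UMIs as well; bars are exact 95% counting intervals and dashed lines mark the call limit. The chaperones lie within the call limit in the last set, Atf5 stays at 0.83, and Ddit3, Xbp1 and Ppp1r15a lie near 0 in all 3.

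Mitochondrially encoded genes also differed in the neutrophil gate as a whole. Of 13, 12 were called higher in CEP, against 35.1% of all genes, and their pooled share of UMIs was 0.678% in CEP and 0.440% in Vehicle. Of the 17 genes of the heat shock and dissociation list, 7 (41.2%) were called higher there, a share near that of all genes. Both counts include the barcodes that also passed the epithelial gate. The part of both lists in the stress gene ratios was not tested.

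Epithelial cells in this CD45 selection were 8.74% of kept CEP barcodes and 1.34% of kept Vehicle barcodes. All 39 genes were measured: 7 were called higher in CEP, against 8.56% of the 10869 genes measured, and 3 were called lower, against 13.2%. The higher ones were Chac1, Mthfd2, Sdf2l1, Sesn2, Herpud1, Eif2ak3 and Manf, and the lower ones Trib3, Ddit4 and Eif2ak2. The median log2 ratio was 0.11 over the set and -0.04 over all measured genes. It was 0.09 over the 14 chaperone and folding genes, of which 2, Manf and Sdf2l1, were called higher. Hspa5 stood at 946 CPM in CEP and 791 CPM in Vehicle, within the call limit. The epithelial markers Epcam, Krt19, Cdh1 and Cldn4 were called lower in CEP in this gate, with Epcam at 677 CPM in CEP and 901 CPM in Vehicle, so the gated cells differed in more than stress genes. All 5 measured neutrophil markers were called higher, with a summed level of 267 CPM in CEP and 108 CPM in Vehicle, and all 3 measured fibroblast markers, with 32.9 CPM in CEP and 2.10 CPM in Vehicle. In barcodes of exactly 1 gate the neutrophil markers stood at 46.8 CPM in CEP and 7.92 CPM in Vehicle, and the log2 ratio of Sesn2, which was highest in neutrophils, was 0.40 in place of 0.49. The part of these markers in the other ratios was not tested. The Vehicle gate held 133 barcodes, which limits the precision of its values.

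Chac1 had the largest ratio in epithelial cells. It stood at 13.5 CPM (12.1 to 15.1) in CEP and 4.98 CPM (3.00 to 7.78) in Vehicle, from 314 CEP and 19 Vehicle UMIs, and its log2 ratio was 1.41 (0.77 to 2.19). The share of barcodes with a Chac1 UMI was 9.23% in CEP (77 of 834) and 8.27% in Vehicle (11 of 133). In CEP 1 barcode held 66 of the UMIs and 10 barcodes held 63.4%, and in Vehicle the top 10 of its 11 barcodes held 94.7%. Much of the CEP level thus sat in a few barcodes rich in Chac1. Of the other genes with the amino acid response core printed above, Asns, which makes asparagine, stood at 23.3 CPM in CEP and 21.5 CPM in Vehicle.

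Mthfd2 stood at 16.8 CPM in CEP epithelial cells and 8.91 CPM in Vehicle, and its log2 ratio was 0.90 (0.41 to 1.47), with a UMI in 19.7% of CEP barcodes and 11.3% of Vehicle barcodes. Thinned to 1000 UMIs per cell, its log2 ratio was -0.016, from a share of 1.80% of CEP cells and 1.504% of Vehicle cells, where a UMI was found in 15 CEP and 2 Vehicle cells. Manf stood at 320 CPM (313 to 327) in CEP and 249 CPM (233 to 265) in Vehicle, with a log2 ratio of 0.36 (0.27 to 0.46), and kept a ratio of at least 0.35 in all 11 other settings tried. Herpud1 stood at 37.0 CPM in CEP and 26.7 CPM in Vehicle, and Sdf2l1 at 19.1 CPM in CEP and 13.4 CPM in Vehicle. Both stayed past the call limit in all 11 other settings tried. Some of these settings could not move them or Manf. No barcode filter and at most 10% mitochondrial UMIs kept the same 834 CEP and 133 Vehicle barcodes. A minimum of 20 UMIs leaves a ratio as it was. Eif2ak3 and Sesn2 rest on 23 and 15 Vehicle UMIs, and their counting intervals included 0.

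Ddit4 (REDD1), an mTORC1 inhibitor also induced by hypoxia and glucocorticoids, was lower in CEP epithelial cells. It stood at 419 CPM (410 to 427) in CEP and 535 CPM (512 to 559) in Vehicle, and its log2 ratio was -0.35 (-0.42 to -0.29). In T cells, the gate with the next highest level, it stood at 322 CPM in CEP and 288 CPM in Vehicle, within the call limit. Of 10 measured genes of the hypoxia list in epithelial cells, 1 was called lower and 0 higher, and of 4 of the glucocorticoid list 1 was called higher. Eif2ak2, the kinase PKR that senses double-stranded RNA and is induced by interferon, stood at 35.6 CPM in CEP and 45.1 CPM in Vehicle. Trib3 stood at 13.3 CPM in CEP and 17.3 CPM in Vehicle, with an interval that included 0 (-0.77 to 0.02).

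In T cells 29 genes were measured, and 2 were called higher in CEP, against 18.9% of the 5071 genes measured, and 6 lower, against 18.6%. Phgdh stood at 96.3 CPM (77.3 to 118) in CEP and 49.4 CPM (37.1 to 64.5) in Vehicle. In barcodes with a Cd8 UMI it stood at 172 CPM in the 43 CEP cells and 100 CPM in the 65 Vehicle cells, and in barcodes with neither Cd8, Foxp3 nor Trdc UMIs at 24.5 CPM in the 98 CEP cells and 24.7 CPM in the 142 Vehicle cells. A Phgdh UMI was found in 29 of 172 CEP T cells and 37 of 271 Vehicle T cells, and 1 CEP barcode held 15 of the 89 CEP UMIs. Its log2 ratio was 0.96 (0.46 to 1.48) in the whole gate, 0.90 (0.38 to 1.45) in barcodes of exactly 1 gate and 0.87 (0.35 to 1.42) with the collagen limit as well. It was within the call limit in 2 settings, at 0.11 as a mean of each cell's own CPM and at 0.21 without barcodes with a keratin or C1q UMI. Of the 4 cycling genes, 3 (Top2a, Cdk1 and Cenpf) were also called higher in the CEP T gate, with a summed level of 409 CPM in CEP and 292 CPM in Vehicle, and their part in the Phgdh ratio was not tested. The other gene called higher was Calr, at 262 CPM in CEP and 206 CPM in Vehicle, with a log2 ratio of 0.36 in barcodes of exactly 1 gate and 0.31, within the call limit, with the collagen limit as well.

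The 6 genes called lower in CEP T cells were Dnajb9, Derl2, Hyou1, Ddit3, Ppp1r15a and Psat1, the last an enzyme of serine synthesis. Ppp1r15a stood at 185 CPM (158 to 215) in CEP and 245 CPM (217 to 276) in Vehicle. It was the only one of the 6 whose counting interval left out 0, and its log2 ratio was -0.40 in the whole gate, -0.50 in barcodes of exactly 1 gate and -0.53 with the collagen limit as well. For Ddit3 these values were -0.56, -0.71 and -0.70, from 18 CEP and 37 Vehicle UMIs in the last set. All 6 neutrophil markers were also called lower in the CEP T gate, and their part in these ratios was not tested. In barcodes of exactly 1 gate, 5 of 27 measured genes were called higher, against 16.4%, and 8 lower, against 17.7%. With the collagen limit as well these counts were 2, against 16.4%, and 8, against 18.7%.

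In the dendritic gate, with 92 CEP and 98 Vehicle barcodes, 28 genes were measured. Called higher in CEP were 2, Dnajb9 and Mthfd2, against 14.9% of the 4757 genes measured, and called lower were 4, Hyou1, Shmt2, Sdf2l1 and Ddit4, against 14.8%. Hyou1, an ER chaperone that exchanges the nucleotide of BiP, stood at 28.8 CPM (19.0 to 41.9) in CEP and 56.6 CPM (43.2 to 72.9) in Vehicle. Sdf2l1 stood at 129 CPM (107 to 154) in CEP and 191 CPM (165 to 219) in Vehicle. Both were lower in the barcodes with Xcr1 or Clec9a UMIs, where Sdf2l1 stood at 156 CPM in CEP and 254 CPM in Vehicle and Hyou1 at 25.5 CPM in CEP and 66.0 CPM in Vehicle. In the barcodes with Ccr7 and Fscn1 UMIs, Sdf2l1 stood at 84.7 CPM in CEP and 73.1 CPM in Vehicle. Those with Xcr1 or Clec9a UMIs were 35 of 92 in CEP and 45 of 98 in Vehicle. Ddit4 stood at 47.0 CPM in CEP and 64.2 CPM in Vehicle, a log2 ratio of -0.44, but the ratio was -1.56 in barcodes of exactly 1 gate and 1.10 with stricter gates, so its size and sign rest on the gate. Other lists moved in the dendritic gate as well. Of 16 measured genes of the heat shock and dissociation list, 10 were called higher in CEP, as were 3 of 4 cycling genes and 4 of 5 epithelial markers, the markers with a summed level of 591 CPM in CEP and 407 CPM in Vehicle. All 4 measured neutrophil markers were called lower, with 454 CPM in CEP and 863 CPM in Vehicle, and so were 4 of 7 hypoxia genes. Their part in the stress gene ratios was not tested.

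The serine and one-carbon enzymes stood higher in dividing cells in both libraries. Cells with at least 2 UMIs of Top2a and Mki67, genes of dividing cells, were set against the rest of the gate. In macrophages, Psat1, Phgdh, Shmt2, Mthfd2 and Asns were all past the call limit, and higher, in the dividing subset in both libraries. With Chac1 and Creld2 this made 7 of the 39 genes that were higher in both, 8 in each library alone, against 30.3% of genes in CEP and 26.4% in Vehicle, so the count as such was below the background. Psat1 stood at 42.5 CPM in dividing and 16.1 CPM in other CEP macrophages, and at 46.3 CPM in dividing and 17.1 CPM in other Vehicle macrophages. Shmt2 stood at 77.6 CPM in dividing and 32.2 CPM in other CEP macrophages, and at 80.1 CPM in dividing and 32.1 CPM in other Vehicle macrophages. Both genes thus differed by more between dividing and other cells than between the libraries. The dividing macrophages numbered 924 in CEP and 1063 in Vehicle and were deeper, with medians of 15666.5 UMIs in CEP and 17083 in Vehicle, against 9143.5 in CEP and 10248 in Vehicle in the rest. Barcodes with keratin RNA were not left out of either subset. Those with 5 or more keratin UMIs held 72.0% of the Phgdh UMIs of the CEP gate and 20.1% of those of the Vehicle gate. Their part in the Phgdh difference between dividing and other macrophages was not tested.

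In epithelial cells 295 CEP and 38 Vehicle barcodes were dividing. Here 12 of 39 genes were higher in the dividing subset in CEP, against 21.2% of genes, and 11 of 34 measured in Vehicle, against 23.6%. The 8 genes higher in both were Asns, Psat1, Phgdh, Shmt2, Hsp90b1, Dnajb11, Creld2 and Derl2. Psat1 stood at 79.9 CPM in dividing and 13.4 CPM in other CEP cells, and at 66.5 CPM in dividing and 12.7 CPM in other Vehicle cells. Phgdh stood at 245 CPM in dividing and 119 CPM in other CEP cells, and at 218 CPM in dividing and 101 CPM in other Vehicle cells. Ppp1r15a and Dnajb9 were lower in the dividing subset in both libraries, against 19.8% of genes called lower in CEP and 21.6% in Vehicle. Dnajb9 stood at 13.97 CPM in dividing and 26.8 CPM in other CEP cells, and at 8.70 CPM in dividing and 28.6 CPM in other Vehicle cells.

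Chac1 and Mthfd2 were higher in CEP among the dividing epithelial cells, on few Vehicle UMIs, and were too low in the rest to compare. In the dividing subset Chac1 stood at 25.3 CPM (22.3 to 28.5) in CEP and 8.70 CPM (4.76 to 14.6) in Vehicle. In the rest it stood at 3.92 CPM (2.91 to 5.16) in CEP and 2.27 CPM (0.736 to 5.29) in Vehicle. Mthfd2 stood at 32.1 CPM (28.7 to 35.7) in CEP and 15.5 CPM (10.1 to 22.9) in Vehicle in the dividing subset. In the rest it stood at 4.31 CPM in CEP and 4.08 CPM in Vehicle. The 38 dividing Vehicle barcodes held 14 Chac1 and 25 Mthfd2 UMIs. In the whole CEP gate 10 barcodes held 63.4% of the Chac1 UMIs. Vehicle UMIs in the rest were 5 for Chac1 and 9 for Mthfd2, so a difference there was not detectable at this depth. Manf was higher in CEP in both: 349 CPM in CEP and 281 CPM in Vehicle in the dividing subset, and 296 CPM in CEP and 225 CPM in Vehicle in the rest. Ddit4 was lower in both, with log2 ratios of -0.50 in the dividing subset and -0.25 in the rest, the second within the call limit.

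**Figure D5:**
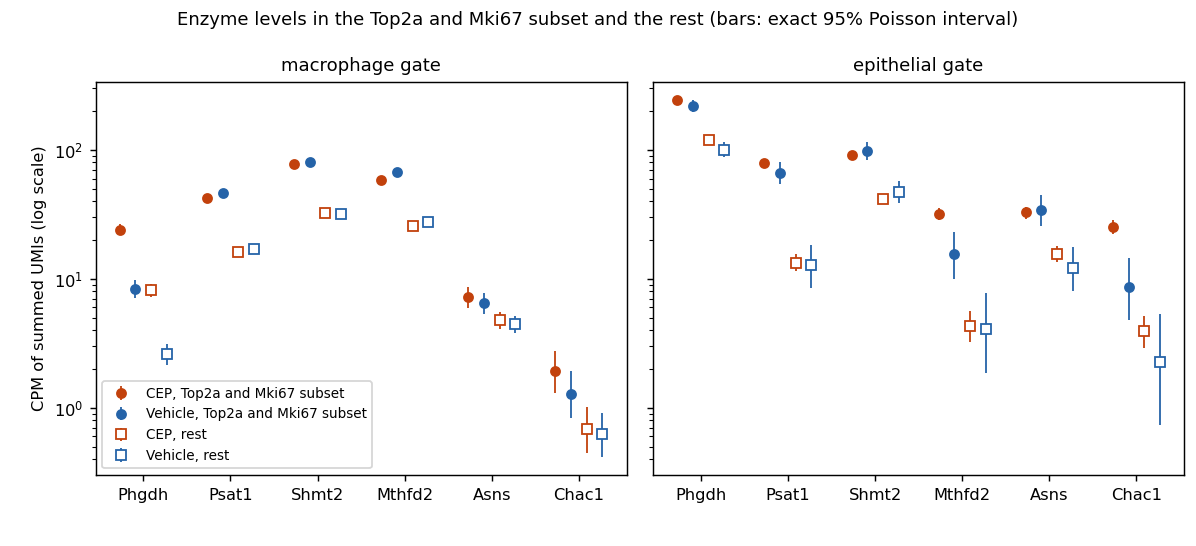
CPM of 5 enzymes and Chac1 on a log axis in the subset with at least 2 Top2a and Mki67 UMIs (filled) and the rest (open) of the macrophage gate (left) and epithelial gate (right), with CEP left of Vehicle in each; bars are exact 95% Poisson intervals. Each gene is higher in the filled points of its own library. CEP and Vehicle lie close together except for Phgdh in macrophages and for Mthfd2 and Chac1 in dividing epithelial cells. For Mthfd2 in dividing macrophages the points are close but the intervals do not overlap, at 58.8 CPM in CEP and 67.0 CPM in Vehicle.

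The wider pathway was counted against the share of all genes called higher, 11.5% in macrophages and 8.56% in epithelial cells. In macrophages 0 of 16 genes of amino acid transport and tRNA charging were called either way. The same was seen for 31 genes of ER entry, folding and glycosylation, and for 25 of ER-associated degradation and its sensors. Of 17 other ATF4 and CHOP genes 4 (23.5%) were called higher, namely Nupr1, Slc1a4, Gdf15 and Tnfrsf10b. In epithelial cells 4 of 17 (23.5%) were called higher, namely Atf3, Nupr1, Bbc3 and Pycr1. The genes Stc2, Gadd45a and Cth, 3 of 17 (17.6%), were called lower, where 13.2% of all genes were. Atf3, a stress and dissociation gene, stood at 1048 CPM in CEP and 820 CPM in Vehicle. Nupr1, a stress-induced nuclear protein, stood at 812 CPM in CEP and 617 CPM in Vehicle. The 31 ER entry, folding and glycosylation genes had 0 calls in epithelial cells, and 24 of ER-associated degradation and sensors had 1 lower. Of 17 genes of amino acid transport and tRNA charging, 1 (Slc7a1) was higher and 3 (Slc7a11, Slc6a9 and Wars) were lower. In the neutrophil gate 15 of 30 ER entry genes were called higher, against 35.1% of all genes, and 6 of 29 in barcodes of exactly 1 gate, against 14.9%. In the latter barcodes the fibroblast markers still stood at 1690 CPM in CEP and 11.1 CPM in Vehicle. This list was not counted with the collagen limit, and the part of those markers was not tested. Ddit3 has 2 gene models with its symbol in the gene list, the second with 0 UMIs, and Phgdh, Chac1 and the other genes have 1.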

How the data were processed

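Per the file headers, the deposited values are counts: whole UMIs per gene and cell barcode in 2 matrices over 32285 gene models, with no normalization. Per the submitters' processing notes, reads were processed with Cell Ranger 5.0.1 against mm10, while the file headers name 7.1.0. The sources used here do not state how intronic reads were treated. No barcode had under 500 UMIs. A limit of 200 or more genes and no more than 15% mitochondrial UMIs left 9544 CEP and 9932 Vehicle barcodes and removed 77 CEP and 57 Vehicle ones. Doublets were kept: the automatic threshold of Scrublet marked 1 cell in each library and had not worked, so the highest 8% of scores was an alternative. Barcodes were gated on raw UMIs and counted in each gate they passed (53 CEP and 41 Vehicle barcodes in several, 2107 CEP and 2168 Vehicle in none).

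UMIs were summed per gate and library. Sums carry exact Poisson intervals, ratios (0.5 UMI added) exact conditional binomial intervals and shares exact Clopper-Pearson intervals, all covering counting error only. Thinning used seed 1. There is 1 library per group, so no p-value was computed. Promoters came from RefSeq (GRCm38.p6). Genes named by value were those past a log2 ratio of 0.32 in size in a gate, with at least 50 UMIs there, at most 10 per direction, and the 8 with the highest mean CPM over the gates; genes in subsets were chosen after their values were seen. The 39 genes, their roles and all lists were chosen with earlier results of these data known. Scanpy 1.11.5, pandas 2.3.3, matplotlib 3.10.9, scipy 1.17.1 and numpy 2.4.6 ran under Python 3.11.15. The calls were also run on simulated counts that held counting error only and changes larger than the call limit. That run does not measure how reliable calls near the limit are in real cells.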

Additional observations from a re-analysis of the deposited data

Results flagged for a closer look

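Sdf2l1, a cofactor of ER folding, had ratios of opposite sign in 2 gates, each past a log2 ratio of 0.32 in size, with a counting interval that left out 0. Its log2 ratio was -0.56 in the dendritic gate, at 129 CPM in CEP and 191 CPM in Vehicle, and 0.50 in the epithelial gate, at 19.1 CPM in CEP and 13.4 CPM in Vehicle. The difference between the gates was not tested, since each group has 1 library.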

How the results depend on the processing

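No paired analysis was possible because each group has 1 library, and for the same reason no replicate could be left out. Only genes called in a gate were recomputed, at most 10 per direction and gate. They made 38 pairs of a gene and a gate, in which 1 gene can occur for several gates. Of their 487 recomputed values, 418 stayed within the counting interval, 56 moved out of it and 13 changed sign. The cause was not tested.

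The counts of genes called in CEP were 2 higher and 1 lower in macrophages and 13 higher and 1 lower in neutrophils. T cells had 2 higher and 6 lower, dendritic cells 2 higher and 4 lower, and epithelial cells 7 higher and 3 lower. Not every count is repeated for each setting below. Percentages are the share of all measured genes called in that direction, gate and setting. With the highest 8% of Scrublet scores left out the counts were 1 higher of 39 in macrophages (9.08%) and 0 lower of 37 in neutrophils (8.14%). Epithelial cells then had 12 higher (10.7%) and 1 lower (13.2%) of 39. In barcodes of exactly 1 gate the counts were 5 higher (14.9%) and 0 lower (9.02%) of 34 in neutrophils. T cells then had 5 higher (16.4%) and 8 lower (17.7%) of 27. With stricter gates the counts were 0 lower of 35 in neutrophils (9.12%). Dendritic cells then had 4 higher (19.0%) and 1 lower (21.4%) of 21. At a minimum of 20 UMIs they were 4 higher of 35 in T cells (23.6%) and 7 lower of 35 in dendritic cells (19.6%). Centred on the median of all genes, neutrophils had 12 higher (28.6%) and 5 lower (17.3%) of 38. Epithelial cells then had 9 higher (10.2%) and 1 lower (10.8%) of 39. In cells thinned to 1000 UMIs fewer genes kept 50 UMIs. The counts were 3 higher and 4 lower of 27 in neutrophils (9.81% and 14.2% of all genes). They were 1 higher and 0 lower of 4 in dendritic cells (16.0% and 11.6%) and 4 higher of 15 in epithelial cells (20.5%). As means of per-cell CPM the counts were 1 higher of 39 in macrophages (7.88%), and 5 higher (16.7%) and 7 lower (14.6%) of 38 in neutrophils. T cells then had 9 lower of 29 (22.1%), and dendritic cells 0 higher (16.7%) and 7 lower (19.7%) of 28. Epithelial cells had 11 higher of 39 (11.0%).

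The next settings were chosen after seeing the data. Without keratin UMIs the counts were 0 higher of 39 in macrophages (5.22% of all genes) and 3 higher of 34 in neutrophils (12.3%). Without keratin or C1q UMIs they were 7 higher and 2 lower in neutrophils and 1 higher in T cells. In neutrophils of exactly 1 gate with under 10 collagen UMIs the count was 1 higher of 34 (9.90%).

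The sign turned for macrophage Chac1 with high Scrublet scores left out (-0.093) and without keratin UMIs (-0.10), and under stricter gates for neutrophil Mthfd2 (-0.17) and dendritic Ddit4 (1.10). In thinned cells it turned for Shmt2 (-0.037), Pdia3 (-0.11) and Mthfd2 (-0.46) in neutrophils, Dnajb9 in T cells (0.30), Dnajb9 (-1.08) and Mthfd2 (-0.37) in dendritic cells, and Mthfd2 (-0.016), Eif2ak3 (-0.33) and Trib3 (0.72) in epithelial cells. Depth limits any call on genes of low level.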

Other observations

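In the dendritic gate, the 8 CEP and 6 Vehicle barcodes with Siglech UMIs, a marker of plasmacytoid dendritic cells, held Xbp1 at 512 CPM in CEP and 983 CPM in Vehicle. In the barcodes with Jchain and Mzb1 UMIs, Xbp1 stood at 219 CPM in the 3 CEP barcodes and 1214 CPM in the 4 Vehicle barcodes, and Manf at 1011 CPM in CEP and 934 CPM in Vehicle. These values describe so few barcodes that no comparison was made.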
